A study of Mus musculus with 8 samples.

Results

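Strong control-only sites are the CHD4 binding sites of mouse atria that were high in both control ChIP libraries and had no called peak in either TBX5 KO library. They numbered 820 of the 121267 sites formed by merging the peak lists of the 4 libraries wherever peaks overlapped by at least 1 bp. A site was a member if it lay on an autosome, ranked at the 70th percentile or above of −log10 p in both control lists, overlapped no TBX5 KO peak and held no control peak of 5000 bp or more. The members were thus selected on the control ranks and on the TBX5 KO calls themselves, so these values describe the members and support nothing further. Of the 65930 autosomal sites called in both control lists with the same limit on width, 16696 (25.3%) had no TBX5 KO peak. Of the 22244 among them that also passed the percentile in both control lists, the 820 members were 3.69%.

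All libraries came from floxed mice (TBX5flox/flox) that received an AAV9 vector on postnatal day 2, and the age at dissection is not given in the sources used here. The control group received AAV9:Nppa-EGFP and the TBX5 KO group AAV9:Nppa-Cre, with 2 ChIP libraries each. In both vectors sequence of Nppa, a gene of atrial cardiomyocytes, drives the transgene, whereas right and left atria were assayed whole, with the cell type given as mixed. Other cells of the tissue need not have lost TBX5, and a site bound in fewer cells cannot be told apart from a site with less CHD4 in each cell. Whether the 2 replicates of a group were separate animals or pools is not in the labels, so the spread between them may be technical. The titles decide the group of each library here. Its genotype and treatment labels say the reverse, and the treatment text has CHD4 as the deleted gene, so that "control" and "TBX5 KO" below mean the titles. With 2 libraries against 2, no exact test can give p under 0.33, and sites are not replicates of a condition, so counts are given with 95% Wilson intervals that cover counting error only.

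CHD4 is the motor subunit of NuRD, a complex that slides nucleosomes with energy from ATP and also carries histone deacetylases. TBX5 binds T-box motifs in enhancers and promoters of heart genes, many of them genes of atrial muscle, rhythm and conduction. NuRD has no strong sequence preference of its own and is brought to many of its sites by DNA-binding factors, while it also sits at CpG-rich promoters active in most cell types.

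Very few of the members overlapped listed gene starts, and the sequence of those starts could be read. RefSeq promoter windows of GRCm38.p6, the assembly behind mm10, were used, each with 250 bases before and 50 after a listed start. The table is not complete and leaves out a whole autosome, so that 796 members could be compared. Of these, 16 (2.01%) overlapped 17 listed windows, of which 5 belonged to protein-coding genes. Among strong sites called in all 4 libraries, which passed the same control percentile, 7570 of 19530 (38.8%) overlapped a window, and among weaker control-only sites 298 of 15276 (1.95%). The 4 coding windows whose start lay nearest to the control summit are printed together with the window of the noncoding gene Gm20742, which belongs to the strongest member with its summit under 500 bp from a start. The window of Ryr2, whose CHD4 site was called in all 4 libraries, is given for contrast, and Nkx2-5, a further gene with a promoter site called in all 4, is described below. These were chosen after their values were seen. Capitals mark CpG dinucleotides, and each window is read 5′ to 3′ on its gene's strand.
Aldh3b3: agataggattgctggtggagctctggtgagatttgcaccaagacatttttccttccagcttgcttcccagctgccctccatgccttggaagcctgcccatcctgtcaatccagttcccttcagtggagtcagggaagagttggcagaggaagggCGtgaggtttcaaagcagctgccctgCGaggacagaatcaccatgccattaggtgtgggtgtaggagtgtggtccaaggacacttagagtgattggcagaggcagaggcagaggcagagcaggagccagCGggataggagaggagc
Pde1c: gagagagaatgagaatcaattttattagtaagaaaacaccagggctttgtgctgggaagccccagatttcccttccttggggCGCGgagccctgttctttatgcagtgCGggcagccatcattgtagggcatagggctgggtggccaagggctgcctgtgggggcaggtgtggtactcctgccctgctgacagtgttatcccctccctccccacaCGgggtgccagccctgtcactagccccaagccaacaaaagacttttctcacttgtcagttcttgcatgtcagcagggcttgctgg
Gimap1: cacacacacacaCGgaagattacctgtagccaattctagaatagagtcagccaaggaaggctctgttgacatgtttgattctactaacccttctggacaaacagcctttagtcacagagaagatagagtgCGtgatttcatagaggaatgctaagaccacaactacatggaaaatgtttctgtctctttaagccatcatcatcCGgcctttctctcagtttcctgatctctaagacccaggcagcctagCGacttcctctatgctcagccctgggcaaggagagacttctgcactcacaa
Fam81a: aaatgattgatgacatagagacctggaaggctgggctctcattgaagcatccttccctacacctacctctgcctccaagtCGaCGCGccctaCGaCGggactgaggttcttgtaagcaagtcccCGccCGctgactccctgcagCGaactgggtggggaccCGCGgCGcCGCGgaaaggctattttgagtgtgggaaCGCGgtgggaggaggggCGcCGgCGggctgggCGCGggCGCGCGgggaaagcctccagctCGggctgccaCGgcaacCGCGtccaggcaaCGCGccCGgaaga
Gm20742: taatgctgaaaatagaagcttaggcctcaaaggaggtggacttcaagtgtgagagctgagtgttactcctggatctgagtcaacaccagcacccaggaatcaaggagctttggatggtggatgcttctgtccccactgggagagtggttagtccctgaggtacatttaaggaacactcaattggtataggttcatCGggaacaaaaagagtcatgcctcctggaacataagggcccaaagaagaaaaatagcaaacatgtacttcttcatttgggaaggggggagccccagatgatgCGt
Ryr2: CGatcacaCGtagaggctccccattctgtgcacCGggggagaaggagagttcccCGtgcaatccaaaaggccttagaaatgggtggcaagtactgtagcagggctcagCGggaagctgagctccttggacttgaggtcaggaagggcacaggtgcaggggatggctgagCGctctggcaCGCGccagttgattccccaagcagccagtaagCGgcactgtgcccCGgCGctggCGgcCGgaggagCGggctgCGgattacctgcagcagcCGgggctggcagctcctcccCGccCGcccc

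The first window, chr19:3958558-3958857 on the plus strand, starts the aldehyde dehydrogenase gene Aldh3b3, and its member had folds over local background of 6.75 in control 1 and 6.48 in control 2 with a summit 5 bp after the start. The window of Pde1c, which encodes a calmodulin-dependent cyclic nucleotide phosphodiesterase, is chr6:56362343-56362642 on the minus strand. Its member had folds of 5.22 and 5.50 and a summit 22 bp after this listed start. The start is an internal one, far from both ends of the gene (chr6:56069798-56652510). Gimap1, a GTPase gene of lymphocytes, has its window at chr6:48738797-48739096 on the plus strand, with folds of 4.86 and 4.67 at its member. The window of Fam81a is chr9:70141508-70141807 on the minus strand, and that of Gm20742 is chr17:66192165-66192464 on the plus strand. At Ryr2, the gene of the calcium release channel of the sarcoplasmic reticulum, the window is chr13:12106896-12107195 on the minus strand. The Ryr2 site there had folds of 7.92 and 5.15 in control and 3.08 (TBX5 KO 1) and 2.85 (TBX5 KO 2) otherwise, so it kept its call at a lower fold. The site over the start of Nkx2-5, a homeobox factor gene of the heart, also kept its call, with folds of 6.39 (control 1), 6.03 (control 2), 2.79 (TBX5 KO 1) and 2.22 (TBX5 KO 2).

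Most of the listed starts that members overlapped were poor in CpG. The printed windows hold 3 CpG at Aldh3b3, 4 at Pde1c, 4 at Gimap1, 30 at Fam81a and 2 at Gm20742, against 18 at Ryr2. The Nkx2-5 window, with 9 CpG and 51.7% GC, was nearer to the members than to Ryr2, although its site was called in all 4 libraries. Over the 17 windows the median was 4 CpG (range 0 to 30), whereas windows under strong sites of all 4 libraries had a median of 22 and all 32851 listed windows a median of 7. The sets differ in gene type, as 5 of the 17 windows but 8889 of the 10432 under strong sites of all 4 libraries were protein-coding. Over coding windows alone the medians were 4 under members, 23 under strong sites of all 4 libraries and 13 for all listed windows. Under weaker control-only sites it was 7. Fam81a alone, 1 of 17 (5.88%), had 10 or more CpG, against 86.2% of the windows under strong sites of all 4 libraries and 43.5% of all windows. Weaker control-only sites resembled the members in their median of 6 CpG, although 27.0% of their windows had 10 or more. GC content had a median of 51.7% under members and 62% under strong sites of all 4 libraries.

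**Figure D1:**
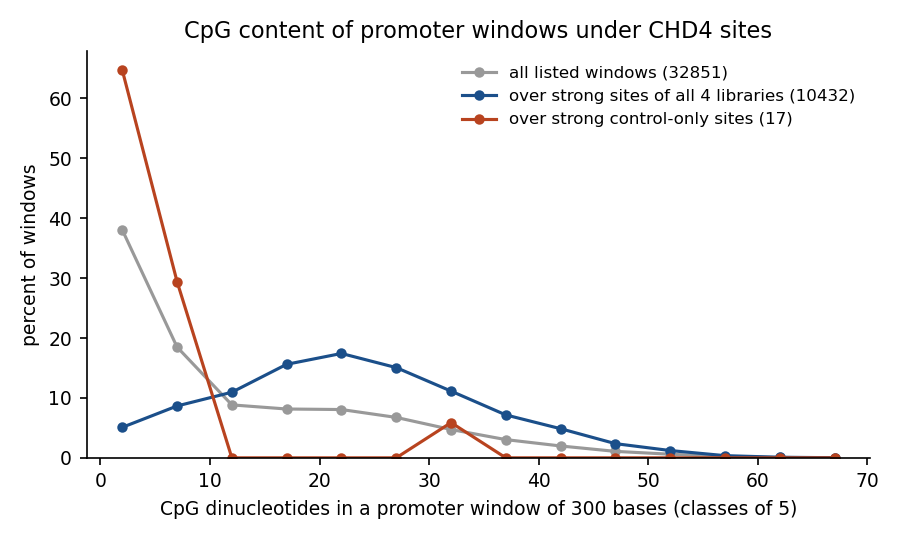
Percent of RefSeq promoter windows (y axis) by number of CpG dinucleotides in the window, in classes of 5 (x axis), for all 32851 listed windows, the 10432 windows under strong sites called in all 4 libraries and the 17 under strong control-only sites. Of the 17 windows, 16 have fewer than 10 CpG, whereas the windows under sites of all 4 libraries peak near 22.

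Short motifs were searched on both strands of the 17 windows. The T-box motif AGGTGTGA was in 0 of them and in 1.28% of all listed windows, and its looser form AGGTGNGA was in 0 and in 5.43%. The GATA motif AGATAA was also in 0 of 17 (11.2% of all windows), as was the MEF2 motif CTATTTNTA (1.34%). The NKX2 motif TNAAGTG was in 4 of 17 (23.5%, against 11.5% of all windows), and the AP-1 motif TGANTCA in 4 (23.5%, against 7.81%). Both the NKX2 and the AP-1 motif occur in the Gm20742 window, and 2 of the 17 windows belong to that gene and overlap nearly in full, so each count holds that stretch 2 times. The nuclear factor I motif TTGGCA was in 4 windows (14.1% of all windows), Aldh3b3 among them. The TEAD motif GGAATG was in 2 windows (14.7% of all), Gimap1 being 1 of them. With 17 windows these are descriptions, and a missing match says only that the letters are not in these 300 bases.

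The members were high in the control lists by the rule, but their median values were below those of strong sites called in all 4 libraries. The 70th percentile was a −log10 p of 16.75 in control 1 and 16.37 in control 2, and the member median was 25.94 (16.8 to 133.1) and 24.83 (16.42 to 133.3). The median fold was 5.21 (3.58 to 14.8) in control 1 and 5.004 (3.47 to 13.5) in control 2. Over all peaks of these lists it was 3.06 and 3.02. For comparison, strong sites of all 4 libraries had median folds of 6.66 and 5.65 in the control lists and 4.11 and 4.17 in the TBX5 KO lists. Most members sat low in the range that the rule admits, and 38 reached the 90th percentile in both lists. The member nearest above the threshold in control 1 was chr16:86138097-86138561, at percentiles 70.02 and 76.15. Just outside lay chr1:132310827-132311738, at 69.996 in control 1 and 70.30 in control 2. In control 2 the nearest inside was chr14:22406543-22406948 (70.18 and 70.03) and the nearest outside chr9:21145364-21146481 (75.12 and 69.99).

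The control peaks of the members were in register, and narrower than those of strong sites called in all 4 libraries. Member peaks had a median width of 877.5 bp in control 1 and 817.5 bp in control 2, against 1571 and 1428 bp at strong sites of all 4 libraries. They were wider than the peaks of these lists as a whole (616 and 628 bp). Weaker control-only sites had 476 and 453 bp. Of the members, 756 were made of 1 peak from each control list and 64 of 3 to 5 peaks. The summits of the 2 control peaks were a median of 39 bp apart and lay within 100 bp of each other at 703 members (85.7%, 83.2 to 88.0). At strong sites of all 4 libraries 80.1% did so, and at weaker control-only sites 55.5%, with medians of 41 and 86 bp. The 2 control libraries therefore placed the summits of members about as closely as those of strong sites that kept their call.

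**Figure D2:**
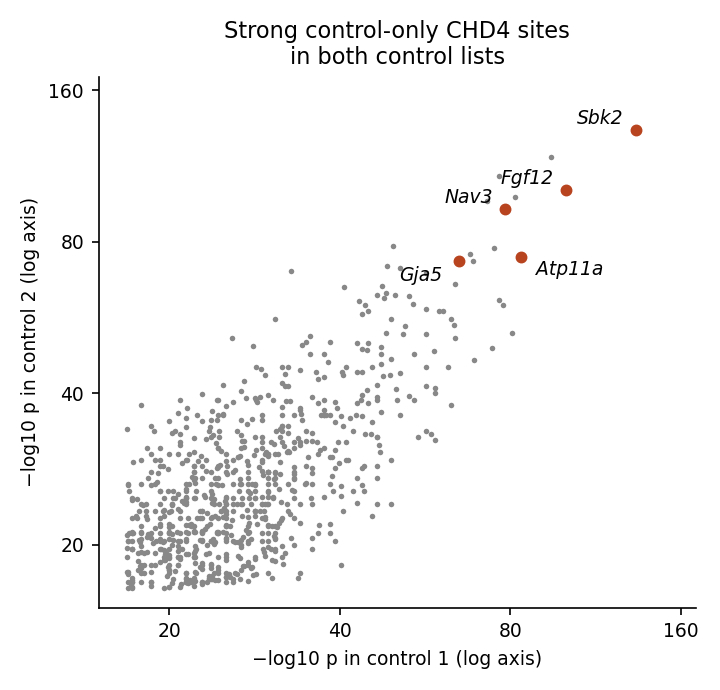
Authors' −log10 p of the 820 strong control-only sites in control 1 (x axis) and control 2 (y axis), both on log axes, 1 point per site, with the strongest members at 5 named genes in red. The highest point, near Sbk2, has 133.1 in control 1 and 133.3 in control 2, while the medians are 25.94 and 24.83.

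A missing call does not mean that no CHD4 was bound. The number of overlapping fragments (pileup) and the local background were recovered from each peak's fold and −log10 p. The median member had a pileup of 62 in each control library, with the background at 10.3 and 11.1. Where the background was at its lowest in a TBX5 KO list, the smallest pileup called was 22 in TBX5 KO 1 and 26 in TBX5 KO 2. Relative to its control pileup over background, the median member could have held up to 0.375 in TBX5 KO 1 and 0.353 in TBX5 KO 2 without being called, if its background there was that lowest one. Over the members this limit ran from 0.135 to 0.521 and from 0.128 to 0.491. Strong sites called in all 4 libraries had measured ratios of 0.657 and 0.668 (medians, n = 20157). The TBX5 KO background at the members themselves is not in the lists. A higher one would raise the pileup needed for a call but lower its ratio to background, and so lower this limit. Over all peaks, called folds went down to 1.21 in TBX5 KO 1 and 1.27 in TBX5 KO 2.

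Intermediate sites existed too. A further 1194 strong sites were called in 1 TBX5 KO library, 368 in TBX5 KO 1 and 826 in TBX5 KO 2, where their peaks ranked at median percentiles of 34.8 and 42.2. Under the same rule with the groups exchanged, 2 sites were high in both TBX5 KO lists and had no control peak. With every list reduced to the length of the shortest, 271 sites met the rule and 5 met it with the groups exchanged, a comparison added after seeing the data. A rule on fewer libraries is met more often, and 1304 sites met it without control 1, 1476 without control 2, 1190 without TBX5 KO 1 and 1650 without TBX5 KO 2.

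Most members lay inside or between genes, away from gene ends. The gene table gives both ends of each gene without strand, so a gene end here is either a start or a transcript end. Of the members, 31 (3.78%, 2.68 to 5.32) reached to within 1 kb of a gene end, 442 (53.9%, 50.5 to 57.3) lay otherwise inside a gene and 347 (42.3%, 39.0 to 45.7) outside. Strong sites of all 4 libraries had 42.0% at gene ends, 33.6% inside and 24.4% outside. The gap at gene ends held within classes of equal control rank. In the class from the 70th to the 80th percentile 17 of 430 members (3.95%) were at a gene end against 18% of strong sites of all 4 libraries, from the 80th to the 90th 13 of 328 (3.96%) against 33.4%, and above the 90th 1 of 62 (1.61%) against 64.4%. Weaker control-only sites had 5.73% at gene ends, so a low share there was shared with them. The member share was 8.59% with sites matched by summits within 250 bp and 5.88% without TBX5 KO 2. The comparison sets were not recomputed under these settings.

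**Figure D3:**
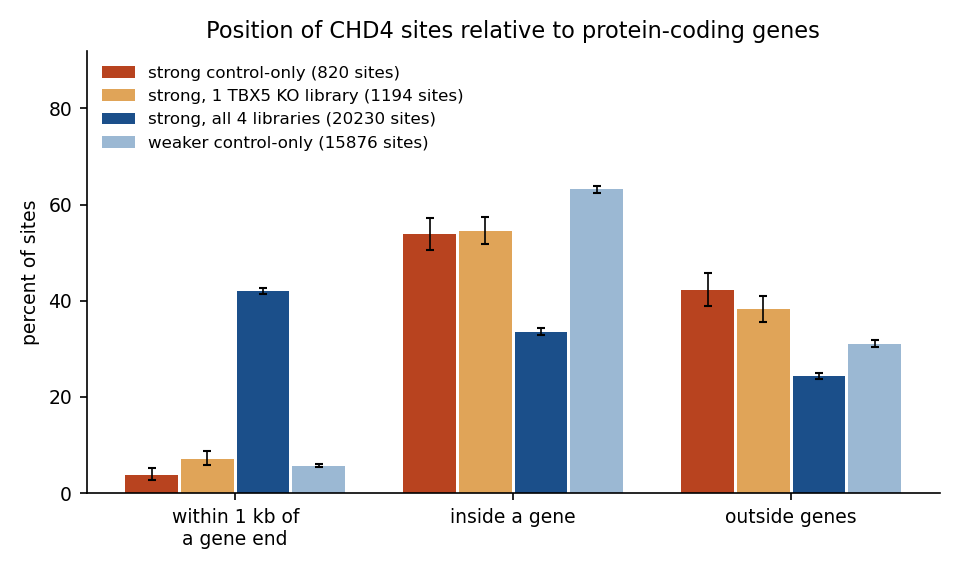
Percent of sites (y axis) within 1 kb of a gene end, otherwise inside a gene, or outside genes (x axis), for 4 sets of sites, with bars for the share and error bars for the 95% Wilson interval. Strong control-only sites have 3.78% at gene ends and sites of all 4 libraries 42.0%.

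The members lay further from gene ends, and in longer genes, than the weaker control-only sites did. Their summits were a median of 39910 bp from the nearest gene end, compared with 22022 bp for weaker control-only sites, 27054 bp for strong sites called in 1 TBX5 KO library and 5712 bp for those called in all 4. Of the members, 197 (24.0%, 21.2 to 27.1) had a summit over 100 kb from any gene end, against 15.7% of the weaker ones, and 110 (13.4%, 11.3 to 15.9) lay over 100 kb from any gene body, against 7.78%. The 463 members that overlapped a gene body did so in genes with a median length of 154503 bp, against 110605 bp for weaker control-only sites and 51336 bp for strong sites of all 4 libraries. Whether introns or exons were hit cannot be read from this table.

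Members were found on every autosome. They made up between 2.35% (41 of 1744, chromosome 11) and 5.01% (76 of 1516, chromosome 1) of the strong sites of a chromosome.

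CHD4 peaks around the members were also fewer in the TBX5 KO libraries. Within 25 kb of a member, not counting the member, there were on average 5.21 and 4.82 peaks in control 1 and control 2 and 1.99 and 2.30 in TBX5 KO 1 and TBX5 KO 2. The ratio of the TBX5 KO to the control mean was 0.429. It was 0.703 around strong sites of all 4 libraries, 0.601 around weaker control-only sites and 0.685 for the autosomal peaks of the lists as a whole. Away from gene ends the ratio was 0.432 for members and 0.719 for strong sites of all 4 libraries. These neighbours come from the same 4 libraries as the calls that chose the members. Other members were counted among the neighbours, and the rule gave each of them control peaks and no TBX5 KO peak. Another member lay within 25 kb of 142 members (17.3%), so the member ratio is partly set by selection. By how much was not tested. The remaining peaks beyond the merged site were not part of the rule, but it excluded any TBX5 KO peak overlapping the site. Adjoining TBX5 KO peaks are therefore rare by selection. At 1 kb after the summit 0.73% (TBX5 KO 1) and 0.37% (TBX5 KO 2) of members were in a peak, against 2.8% and 3.05% at 5 kb. Weaker control-only sites were chosen under the same exclusion.

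The sites nearest to the members followed the same course. A TBX5 KO peak lay within 5 kb of 280 members (34.1%, 31.0 to 37.5), against 52.5% of strong sites called in 1 TBX5 KO library, 57.8% of weaker control-only sites and 64.0% of strong sites of all 4 libraries. With sites matched by summits within 250 bp, where peaks that overlap at other summits count as neighbours, the member share was 54.8% (645 of 1176). That lies among the shares of the comparison sets given above. Those sets were not recomputed by summits, so whether the gap remains under that matching was not tested. With sites merged at 1 bp, another control peak lay within 5 kb of 555 members (67.7%) and of 76.9% of strong sites of all 4 libraries. That is a smaller gap between the sets than for TBX5 KO peaks. The median distance to a TBX5 KO peak was 9706 bp for members and 2650 bp for strong sites of all 4 libraries. At 168 members (20.5%, 17.9 to 23.4) there was another control peak but no TBX5 KO peak within 25 kb. That was so at 5.25% of strong sites of all 4 libraries and 7.99% of weaker control-only sites. Among the 62 members of mean percentile 90 or above it was 27 (43.5%, 31.9 to 55.9), and among those under 80 it was 69 of 430 (16.0%, 12.9 to 19.8). The other control peak can itself be a member, which has no TBX5 KO peak by the rule. Another member lay within 25 kb of 22 of the 62 and of 62 of the 430, so these shares are partly set by selection.

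**Figure D4:**
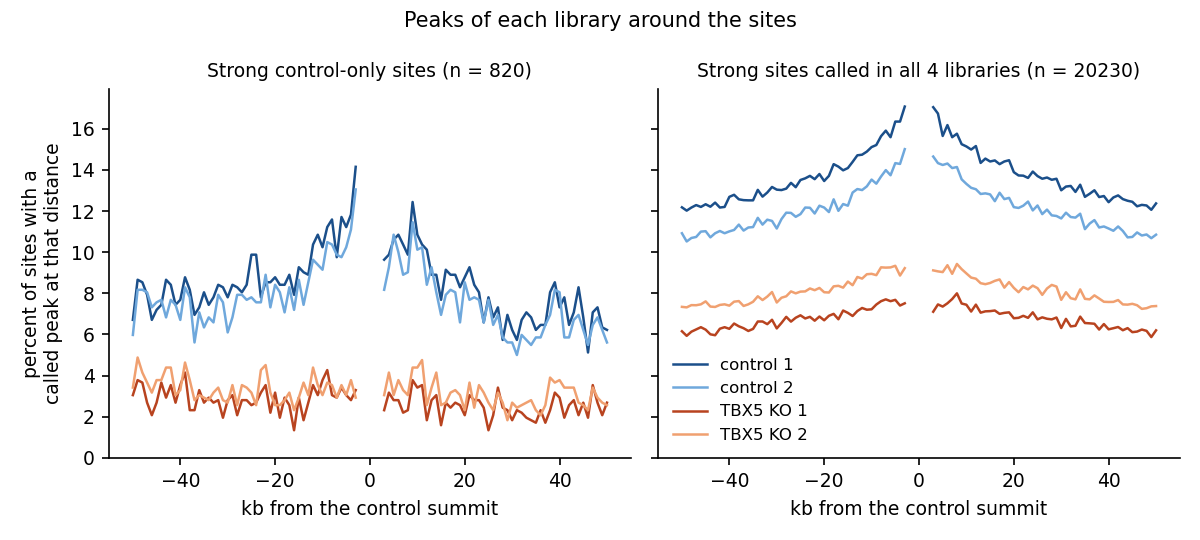
Percent of sites with a called peak (y axis) at each kb from the control summit (x axis, 3 to 50 kb on each side), 1 line per library, for the 820 strong control-only sites and the 20230 strong sites of all 4 libraries. Control lines rise towards the members, to 11.2% and 10.2% at 5 kb before the summit, while the TBX5 KO lines stand at 3.05% in both libraries there.

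Members clustered with each other. Another member lay within 25 kb of 142 of them (17.3%, 14.9 to 20.1), whereas a member lay that near to 9.21% of strong sites called in 1 TBX5 KO library, 6.15% of weaker control-only sites and 3.05% of strong sites of all 4 libraries. Chained at 25 kb, the members formed 678 single sites, 52 pairs, 10 runs of 3 and 2 runs of 4.

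Both runs of 4 lay at atrial genes. The first spanned 39508 bp (chr7:4946926-4986433) across the neighbouring kinase genes Sbk2 and Sbk3, of the SH3-binding-domain kinase family. It held the strongest member of all, chr7:4951733-4954961, which lay 1172 bp outside Sbk2 and had folds of 14.8 and 13.3 in the control lists. Its pileup was 163 in control 1 and 174 in control 2, and the nearest TBX5 KO peak was 7852 bp away. The other members of this run had folds of 6.57 and 6.78 (between Ssc5d and Sbk2), 7.29 and 6.83 (at a gene end of Sbk3) and 9.14 and 9.94 (beyond Sbk3). The second run spanned 33795 bp (chr6:87417805-87451599) around Bmp10, a growth factor gene of atrial muscle, and reached the neighbouring gene Arhgap25. Of the 4 strong sites at Bmp10, 3 were members and 0 were called in all 4 libraries. The member whose edge was 798 bp from Bmp10 had folds of 6.39 in control 1 and 6.21 in control 2.

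Runs of 3 lay inside Fgf12, Atp11a, Nrg2, Tnni3k, Sema6d, Sdk2 and Vdr, near Otos and Gpc1, near Rsrc1 and Mlf1, and in a region 316979 bp from the ephrin receptor gene Epha4 for its strongest member. These names were taken from the runs after they were seen. At the Epha4 run, chr1:77043693-77063283, the best member had folds of 8.93 and 9.24 and the nearest TBX5 KO peak was 90497 bp from it.

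Some of the highest members had no protein-coding gene within 10 kb. After the Sbk2 site came chr10:57112654-57116233 (folds 11.3 and 13.5), which was 367532 bp from the nearest gene, Hsf2, and 131408 bp from the nearest TBX5 KO peak. The next was chr16:28705964-28708023 in Fgf12, an intracellular member of the fibroblast growth factor family that acts on sodium channels, with folds of 11.6 and 11.5. A member at chr4:148783314-148784968 (folds 10.7 and 11.8) lay 19397 bp from Casz1, a zinc finger factor gene of heart development. Another at chr2:55164472-55166357 (8.58 and 10.5) was 265404 bp from the nearest TBX5 KO peak. In all, 282 members had no protein-coding gene within 10 kb, and the other 538 of the 820 touched the 10 kb surroundings of 504 genes. Over all strong sites, members included, 17962 of 22244 lay within 10 kb of such a gene. Whether the highest members differed from the rest in this was not tested. A nearby gene is a matter of position and does not show which gene a site acts on.

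Of these 504 genes, 83 had 2 or more members. Nav3, a microtubule-associated neuron navigator gene, had 4, which were all of its strong sites. Its strongest, chr10:110399579-110401735, had folds of 10.4 and 10.3 and the weakest of the 4 had 5.23 and 7.42, and the nearest TBX5 KO peak was between 51994 and 221474 bp from them. Tnni3k, which encodes a kinase of cardiac muscle that binds troponin I, likewise had 4 members among 4 strong sites, the strongest with folds of 7.69 and 7.83. Erbb4, a neuregulin receptor gene, had 4 of 7, with folds of 6.35 and 8.36 at the strongest. At Nrg2, a neuregulin gene, 3 of 5 strong sites were members, and the strongest had folds of 8.55 and 7.81. Erbb4 and Nrg2 were named for their number of members, and the genes of that pathway were not counted as a set.

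The count of members has to be read against the number of strong sites. Sema6d, a transmembrane semaphorin gene, had 4 members among 11 strong sites, and Palld, the gene of the actin scaffold palladin, 4 among 16. At Atp11a, a phospholipid flippase gene, 3 of 6 were members, the best with folds of 10.9 and 8.02. At Camk1d, a calmodulin-dependent kinase gene, 3 of 5 were members.

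Sites were then counted by gene lists for cell types and pathways of the atrium, which were drawn up with earlier results of these data known, so they are no independent evidence. Of the strong sites within 10 kb of any protein-coding gene, 538 of 17962 (2.99%) were members. At the 23 atrial identity genes 16 of 55 strong sites were members (29.1%, 18.8 to 42.1), at 10 of the genes, while 30 were called in all 4 libraries. Fgf12 and Bmp10 had 3 of these members each and the neighbouring Sbk2 and Sbk3 had 2 each. The share thus rests largely on a few loci. Here and in the other lists the intervals count sites of the same locus as independent, so they may be too narrow. The 17 ion channel and conduction genes had 8 of 49 (16.3%, 8.51 to 29.0). Oxidative metabolism genes had 4 of 41 (9.76%, 3.86 to 22.6), ventricular identity genes 2 of 24 (8.33%, 2.32 to 25.9) and calcium handling genes 6 of 82 (7.32%, 3.40 to 15.1). Intercalated disc genes had 2 of 44 (4.55%), sarcomere and Z-disc genes 2 of 47 (4.26%), cyclic AMP signalling genes 2 of 65 (3.08%) and cardiac transcription factor genes 2 of 70 (2.86%). For the last 4 lists, as for ventricular identity and calcium handling, the interval included the 3.69% of all strong sites, which also counts sites far from genes. Against the 2.99% near genes, the calcium handling interval lay just above, and those of the last 4 lists and of ventricular identity still included it.

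Lists of cells other than cardiomyocytes held no member. Fibroblast genes had 0 of 22 strong sites, endothelial and endocardial genes 0 of 43, smooth muscle genes 0 of 18 and blood and macrophage genes 0 of 4, and the epicardial list had 0 strong sites to begin with. Together these 5 lists had 0 members among 87 strong sites, which allows a share of up to 3.45% by a limit of 3 counts and 4.23% by the Wilson interval, and 84 of the 87 were called in all 4 libraries. These limits lie close to the 3.69% of all strong sites and above the 2.99% near genes, so a lower share was not detectable at these numbers. The NuRD complex had 0 of 23, housekeeping genes 0 of 18, skeletal muscle genes 0 of 5 and neuronal genes 0 of 1.

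**Figure D5:**
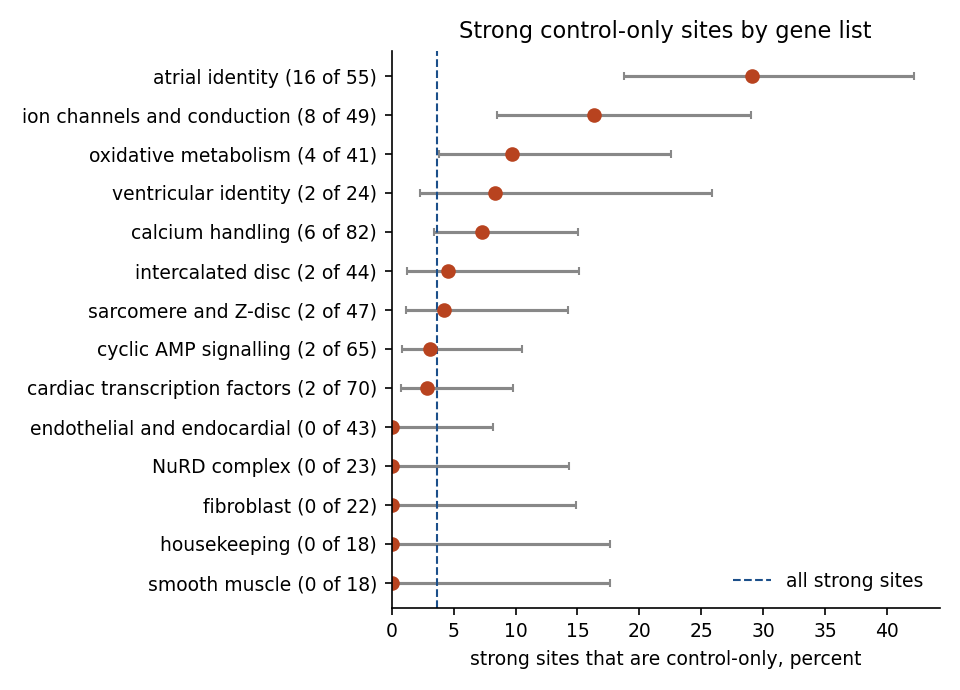
Percent of the strong sites at each gene list that were control-only (points, x axis) with 95% Wilson intervals, for lists with at least 10 strong sites (counts in brackets on the y axis). The dashed line is the 3.69% of all strong sites, and the intervals of atrial identity, ion channels and conduction, and oxidative metabolism lie above it.

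Among atrial genes the members covered ligand, channels, junction and contractile genes. At Fgf12 3 of 4 strong sites were members, all in the gene body. Gja5, the gene of the atrial gap junction protein connexin 40, had 1 strong site, chr3:97061797-97063703, and it was a member, 8162 bp from the gene, with folds of 8.81 and 9.94. At Myl7, which encodes the regulatory light chain of atrial myosin, 1 of 2 was a member, 6479 bp from the gene, with folds of 6.92 and 8.60, and the second was called in all 4 libraries. Kcnj5 and Kcnj3, whose products form the acetylcholine-gated potassium channel of the atrium, each had 1 member of 3 strong sites, with folds of 6.66 and 6.80 at Kcnj5 and 4.999 and 3.52 at Kcnj3. Myl4, the atrial essential light chain gene, had 1 of 5 (4.87 and 4.26), and Pam, the peptide amidating enzyme gene, 1 of 8 (5.23 and 4.20). Nppa, Nppb, Sln and Tbx5 had 0 members. Nppa and Sln had no strong site within the limit on width, the 1 at Nppb was called in 1 TBX5 KO library, and both strong sites of Tbx5 were called in all 4.

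In the ion channel list the members lay at 4 of the 17 genes. Scn10a, a sodium channel gene, had 1 member of 2 strong sites (folds 5.57 and 5.63). Hcn4, the gene of the pacemaker current, had 2 strong sites, both of them members inside the gene, with folds of 7.02 and 7.36 at chr9:58829108-58830550 and 6.48 and 5.08 at chr9:58847555-58848339. Kcnd3, a gene of the transient outward potassium current, had 2 of 8, both near the threshold with folds of 4.41 to 4.88.

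Of the 82 strong sites at calcium handling genes, 70 were called in all 4 libraries. Cacna1c, the pore gene of the L-type calcium channel, had 3 members among 18 strong sites and 14 that were called in all 4 libraries. Its members had folds of 5.85 to 6.03 in control 1 and 4.10 to 5.85 in control 2. At Ryr2 68 of 77 sites had no TBX5 KO peak, yet only 6 were strong, 1 of which was a member (folds 6.03 and 6.48, 111276 bp from the nearest TBX5 KO peak). The site at the printed Ryr2 promoter was among the 4 strong ones called in all 4 libraries.

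The remaining lists held few members. Ppargc1a, a coactivator gene of mitochondrial biogenesis, had 2 of 8, and Ppara and Cd36, a nuclear receptor and a fatty acid transporter gene of lipid use, had 1 each of 5 and 4. Among intercalated disc genes the desmosomal cadherin genes Dsc2 and Dsg2 had 1 member each. The one at Dsc2 had folds of 8.36 and 7.24. The cyclic nucleotide phosphodiesterase genes Pde3a and Pde4d had 1 each, with folds of 6.82 and 4.96 at Pde3a. Ventricular members lay at Gja1, the connexin 43 gene (4.71 and 3.98), and Cdh13. The transcription factor members lay at the orphan receptor gene Esrrg (6.02 and 4.25) and the GATA cofactor gene Zfpm2 (3.95 and 3.599). Gata4 had 5 strong sites, Nkx2-5 had 2 and Chd4 had 2, all of them called in all 4 libraries.

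The highest member at a gene end lay at the extracellular matrix gene Cilp2 (chr8:69875543-69879915, folds 8.82 and 8.60), with a TBX5 KO peak 982 bp away. Next came Sbk3, given above, the chaperone gene Dnajb6 (5.94 and 8.43), Aldh3b3, printed above, and the mRNA-binding protein gene Cpeb3 (7.02 and 6.03).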

How the data were processed

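CHD4 ChIP-seq peaks of 4 libraries on build mm10 were analysed. The 4 input libraries were not analysed here. Per the submitters' processing notes the tools were MACS2 and DiffBind, without versions, and no aligner, filter or call setting is given in the sources used here. The deposited lists hold, per peak, the authors' fold (a ratio of pileup to local background), −log10 p and −log10 q, and a score. The score was not used. Depth is unknown, since the lists hold no read totals.

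Peaks were merged at 1 bp overlap. Percentiles of the authors' −log10 p were taken within each list, and a site took its best peak. Pileup and background were solved from the authors' fold and −log10 p as a Poisson tail, up to a −log10 p of 250. At least 99.89% of the recovered pileups of a list were within 0.05 of a whole number. Genes came from a RefSeq table of GRCm38.p6 with 21883 protein-coding genes, and a site belonged to a gene within 10 kb. The merging and the recovery were tested on simulated data. Python 3.11.15, pandas 2.3.3, numpy 2.4.6, SciPy 1.17.1 and matplotlib 3.10.9 were used.

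Promoter windows cover all autosomes but 18. Named genes were those of the 10 highest members, the 10 genes with most members, up to 3 genes per list, the 5 highest members at gene ends, and Tbx5, Chd4, Nppa, Nppb, Myl7, Sln, Bmp10, Gja5, Ryr2, Gata4 and Nkx2-5; further genes of the lists are named as examples. Some genes taken by this rule are not reported here. The members and lists were chosen with earlier results of these data known. No test was made over sites. Alternatives were percentiles of 60 and 80, ranking by fold or −log10 q, 50% overlap, summits within 250 bp, −log10 q of at least 3, lists of equal length, no limit on width, each library left out, exchanged groups, other windows and the gene with the nearest end. Sequence at members away from listed promoters was not analysed here.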

Additional observations from a re-analysis of the deposited data

How the results depend on the processing

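The number of members was 288 at the 80th percentile, 1786 at the 60th, 271 in lists of equal length, and 2 with the groups exchanged (5 in lists of equal length, added after seeing the data). Leaving out 1 library gave 1190 to 1650, over 1.5 times the full count without control replicate 1 or 2 or TBX5 KO replicate 2. The share within 1 kb of a gene end was 8.59% by summits and 7.56% within 2.5 kb, and 3.37% to 5.88% with 1 library left out, the highest without TBX5 KO replicate 2. The share inside a gene was 58.2% at the 60th percentile and 53.8% to 56.3% with 1 library left out. Another member lay within 25 kb of 14.2% at the 80th percentile, 21.8% at the 60th and 13.7% in lists of equal length, and within 10 kb of 10.1%, with 18.2% to 19.6% when 1 library was left out. A TBX5 KO peak lay within 5 kb of 29.9% at the 80th percentile, 54.8% by summits and 28% in lists of equal length, and within 1 kb of 8.41%, with 35.2% to 38.1% when 1 library was left out. The other 49 values moved by less than 1.5 times for counts or by less than the Wilson interval for shares. Shares with the groups exchanged were not computed, as so few sites met the rule. No paired analysis was made, as the labels do not pair control with TBX5 KO libraries. Without read totals, a site under the threshold cannot be told apart from one that is unbound.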

Other observations

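On chromosome X, which the rule leaves out, 13 of 283 strong sites within the limit on width were control-only, and chromosome Y had 1 such site. The limit on width left out 2 autosomal sites. One, chr6:87433511-87439621, overlapped a gene end of Bmp10, within the run of members there, with control peaks of 5803 and 3448 bp. The second was chr3:108370826-108376449, with 2808 and 5624 bp. The member with the widest single control peak was chr7:46110408-46115197, with 3705 and 4769 bp. Of 919 autosomal miRNA hairpins in the RefSeq table, 5 lay within 10 kb of a member and 0 overlapped one. A member of mean percentile 94.52, with folds of 10.1 and 7.90, lay 38864 bp from Hopx, a homeodomain gene of cardiac muscle, and was named after its value was seen.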
